A study of Bos taurus with 13 samples.

Results

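bta-miR-184, bta-miR-205, bta-miR-182 and bta-miR-183 are epithelial miRNAs outside the miR-200 family, and they were followed here through the extracellular vesicles (EVs) of bovine follicular fluid. They were taken by name from the deposited tables, and these 4 of the 311 miRNAs listed for any group were listed for all 5 groups, as were 262 miRNAs in all. Each of the 4 passed the filter on low reads over all pools, as did 247 of those 262. They were chosen by their lower levels in cow pools than in heifer pools, so their fold changes and calls against heifers below describe that choice, carry no p-value and support nothing further. EVs are membrane-bound particles that cells release, and Holstein Friesian donors gave the fluid by ovum pick-up from large follicles. Transient cows (TCs) had negative energy balance at weeks 5 and 6 post-calving (3 pools, 11 cows) and positive energy balance at weeks 9 and 10 (3 pools, 7 cows). Always negative cows (ANCs) and always positive cows (APCs) were sampled at weeks 5 and 6 (2 pools from 2 cows in each group), and heifers, young animals that had not lactated and were in positive energy balance, gave 3 pools from 8 animals. The cow groups were defined from blood metabolites, body weight and energy balance, and fluid from cystic ovaries or with blood contamination had been discarded. The sources used here do not say which animals went into which pool or if the later TC pools came from cows sampled earlier, so all spreads and p-values are those between pools.

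A miRNA guides a silencing complex to messenger RNAs that match its seed, the first few bases near its 5′ end, and lowers their translation or stability. miR-184 is known for its abundance in the epithelia of cornea and lens, where a change in its seed causes eye disease. miR-205 marks the basal cells of stratified and glandular epithelia and represses the transcription factors ZEB1 and ZEB2, which it does together with the miR-200 family. miR-182 and miR-183 come from 1 transcript together with miR-96, are abundant in sensory epithelia, and are also made by bovine granulosa cells, where FOXO1 is a known target. In the RefSeq annotation (assembly ARS-UCD2.0), MIR182, MIR96 and MIR183 followed each other without another gene between them, next to NRF1. MIR184 lay next to ANKRD34C and MIR205 next to CAMK1G, away from that cluster. The EVs of follicular fluid can come from every cell that borders the follicle or from the blood that feeds it, and no epithelium was sampled as such. In a bulk EV sample, fewer vesicles from a cell type and less miRNA per vesicle cannot be told apart.

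The libraries held between 145030 and 421435 recovered reads (median 327359). These are the reads of the miRNAs listed for each group, not all reads that were sequenced. Levels are given as CPM (read counts scaled to a common library size) of the reads of all 13 libraries scaled together with TMM, the trimmed mean of M-values, and a miRNA with 3 reads then stood between 7.08 and 21.88 CPM. The 4 miRNAs together took between 0.0727% and 0.45% of the recovered miRNA reads of a cow pool and between 0.567% and 0.987% of those of a heifer pool.

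bta-miR-184 had the widest range of the 4. In heifers it stood at 1013, 3582 and 2130 CPM in replicates 1, 2 and 3. In the TCs at weeks 5 and 6 it stood at 60.1, 1335 and 27.0 CPM, and in the TCs at weeks 9 and 10 at 82.9, 1168 and 182 CPM. Replicate 2 of each TC group was thus above the lowest heifer pool, while their other pools were far below it. In the ANCs the values were 11.3 and 306 CPM, and in the APCs 239 and 53.4 CPM. The lowest of these rested on 3 reads, with an exact 95% counting interval of 2.33 to 33.0 CPM, and the 8 reads of replicate 3 of the TCs at weeks 5 and 6 gave 11.7 to 53.2 CPM. These intervals cover counting error alone. Of the 10 cow pools, 8 lay below the lowest heifer pool, and the highest cow pool was 118 times the lowest, against 3.54 times among heifers.

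bta-miR-205 was more even. Its level in heifers was 3255, 4205 and 2356 CPM. The TCs had 1353, 2269 and 611 CPM at weeks 5 and 6 and 885, 2361 and 1177 CPM at weeks 9 and 10. The highest of the latter exceeded the lowest heifer pool by a margin smaller than any spread between replicates. The ANCs had 331 and 1488 CPM and the APCs 701 and 1136 CPM. All other cow pools, 9 of 10, stayed below the heifers, and the cow pools spanned 7.13-fold.

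bta-miR-182 and bta-miR-183, the partners of 1 cluster, had the smallest ranges over the cow pools (4.17-fold and 4.51-fold). bta-miR-182 stood at 477, 649 and 531 CPM in heifers, at 251, 610 and 169 CPM in TCs at weeks 5 and 6, and at 236, 492 and 222 CPM in TCs at weeks 9 and 10. It was 233 and 204 CPM in ANCs and 198 and 705 CPM in APCs, so that replicate 2 of the APCs was above every heifer pool. The cow pools fell into 7 between 169 and 251 CPM and 3 between 492 and 705 CPM, the latter being replicate 2 of both TC groups and of the APCs. bta-miR-183 stood at 326, 415 and 973 CPM in heifers, at 150, 269 and 84.4 CPM in TCs at weeks 5 and 6, and at 176, 326 and 115 CPM in TCs at weeks 9 and 10. The ANCs had 139 and 182 CPM and the APCs 171 and 381 CPM. Replicate 2 of the TCs at weeks 9 and 10, with 325.9 CPM, fell just short of the lowest heifer pool with 326.4 CPM, and replicate 2 of the APCs was the one cow pool above it.

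**Figure D1:**
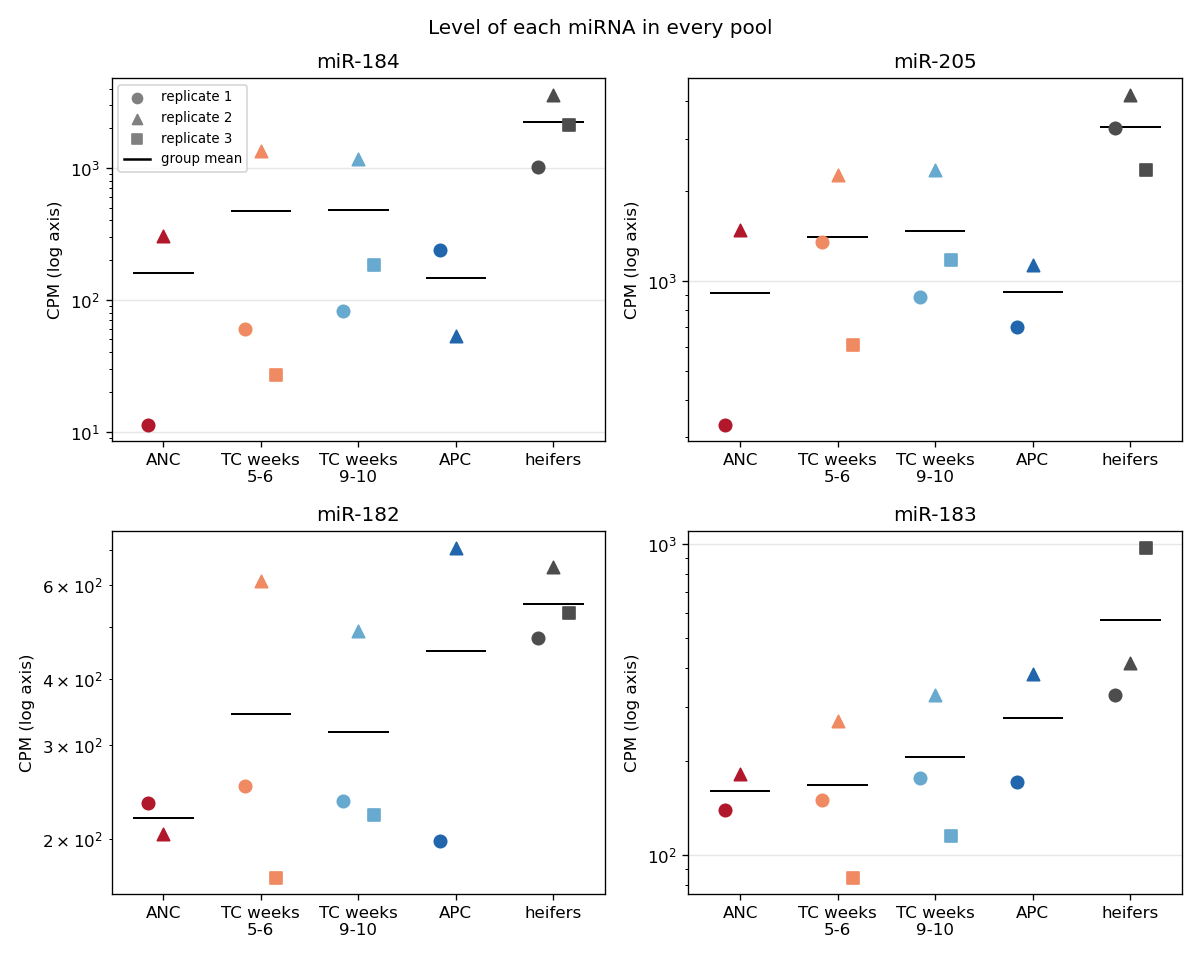
Level of each of the 4 miRNAs in CPM (log axis) in every pool, by group, with the symbol giving the replicate number and the bar the group mean. The heifer means are the highest in all 4 panels, and replicate 2 of the TC groups reaches into or close to the range of the heifers.

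By their means, heifers ranked first for all 4 miRNAs. For bta-miR-184 the mean was 2242 ± 1288 CPM in heifers (SD, n = 3), followed by 478 ± 600 CPM in TCs at weeks 9 and 10 (n = 3), 474 ± 746 CPM in TCs at weeks 5 and 6 (n = 3), 159 ± 209 CPM in ANCs (n = 2) and 146 ± 131 CPM in APCs (n = 2). For bta-miR-205 the same order gave 3272 ± 925, 1474 ± 782 and 1411 ± 831 CPM (n = 3 each), then 918 ± 308 CPM in APCs and 910 ± 818 CPM in ANCs (n = 2 each). For both miRNAs the cow groups, which are neighbours in this order, differed by less than their spread. For bta-miR-182 the order was 552 ± 87.8 CPM in heifers, 451 ± 359 CPM in APCs, 343 ± 235 CPM in TCs at weeks 5 and 6, 317 ± 152 CPM in TCs at weeks 9 and 10 and 219 ± 20.6 CPM in ANCs. For bta-miR-183 it was 572 ± 350 CPM in heifers, 276 ± 148 CPM in APCs, 206 ± 108 CPM in TCs at weeks 9 and 10, 168 ± 93.3 CPM in TCs at weeks 5 and 6 and 161 ± 30.5 CPM in ANCs. The cow groups again overlapped, and no pair of neighbours among them differed beyond the spread between pools.

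The comparison with heifers asks how lactating cows differ from animals that have not lactated. The members were picked on it, so their log2 fold changes (on log2(CPM + 5), limma, SE in parentheses) describe the choice. Differentially expressed (DE) miRNAs were called with the study's limits, namely a log2 fold change of 1 or more in either direction, a p-value under 0.05 and, after adjustment, no more than 0.25. In ANCs all 4 were called lower, where 19.1% of the 215 miRNAs tested were called in either direction. Their log2 fold changes were -4.82 (1.02) for bta-miR-184, -2.16 (0.58) for bta-miR-205, -1.30 (0.38) for bta-miR-182 and -1.64 (0.50) for bta-miR-183, which correspond to levels 28.2, 4.47, 2.46 and 3.11 times lower. The size of the first depended on the pool with 3 reads, as bta-miR-184 stood at -2.72 without ANC replicate 1, at -6.88 without ANC replicate 2 and at -3.97 with edgeR, and the group means differed 14.1-fold. bta-miR-205 ranged from -3.13 to -1.15 with 1 pool left out. In APCs bta-miR-184 with -3.99 (0.77) and bta-miR-205 with -1.77 (0.42) were called, where 12.4% of 233 were. bta-miR-182 with -0.48 (0.57) and bta-miR-183 with -0.92 (0.60) were not.

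In TCs at weeks 5 and 6 bta-miR-183 was called with -1.70 (0.56), where 6.52% of 230 were. The values of the others were -3.80 (1.34) for bta-miR-184, -1.34 (0.50) for bta-miR-205 and -0.85 (0.48) for bta-miR-182. Same-numbered pools of these TCs and of heifers deviated together, and with the replicate number as a block the calls on bta-miR-184 and bta-miR-205 joined that on bta-miR-183, and 34 miRNAs in place of 15 were called in all. In TCs at weeks 9 and 10 none of the 227 miRNAs tested was called by limma (0%), with 23 at an unadjusted p-value under 0.05, 0 called by edgeR and 14 by DESeq2. The members stood at -2.90 (0.91), -1.25 (0.45), -0.89 (0.39) and -1.43 (0.49) in the order used above. All 16 of these fold changes were negative, while the median over all miRNAs tested lay between -0.01 and 0.03 in the 4 comparisons. These comparisons share the heifer pools.

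The calls rested on few pools. Without ANC replicate 1, bta-miR-205 (log2 fold change -1.15) and bta-miR-183 (-1.51) were no longer called against heifers, and without heifer replicate 2, bta-miR-182 (-1.08) was not. Without heifer replicate 1, bta-miR-184 alone of the 4 was called in APCs, among 5 called of 230 miRNAs tested, with bta-miR-205 at -1.80. Without APC replicate 2, which leaves 1 APC pool, bta-miR-182 stood at -1.40. In the TCs at weeks 5 and 6 no member and no other miRNA was called without TC replicate 1 or 3 or heifer replicate 1 or 2. bta-miR-183 stood at -1.67 and -1.24 without these TCs. Without heifer replicate 3, bta-miR-205 was called in place of bta-miR-183, among 30 called of 233 miRNAs tested. All 4 were called without TC replicate 2, among 46 called of 236 miRNAs tested. In the TCs at weeks 9 and 10 all 4 were called without TC replicate 2, among 24 called of 241 miRNAs tested. With all pools 0 of 227 were called there. In each TC group the pool left out last was the one with the highest bta-miR-184 and bta-miR-205.

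**Figure D2:**
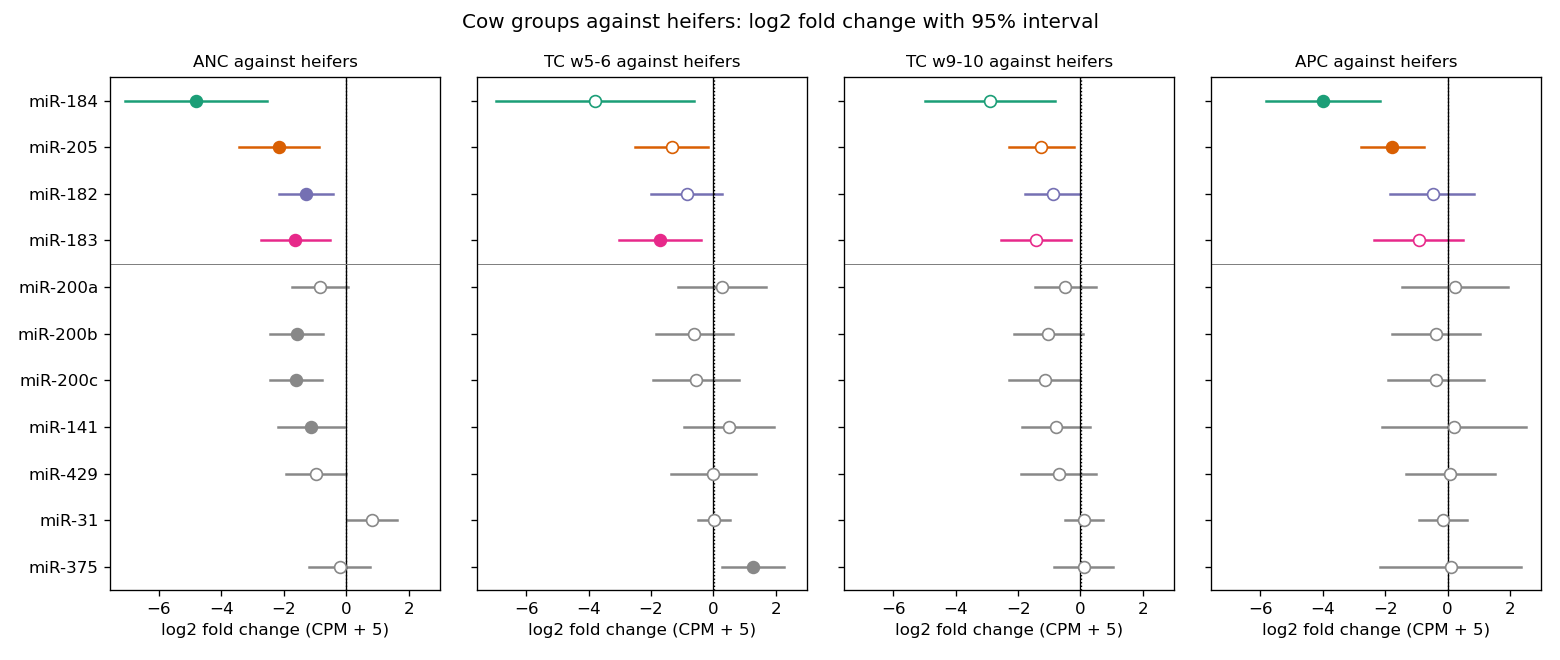
Log2 fold change of each cow group against heifers (on log2(CPM + 5), points) with its 95% interval (lines) for the 4 miRNAs above the grey line and 7 other epithelial miRNAs below it. Filled points were called DE and the dotted line is the median of all miRNAs tested. bta-miR-184 has the lowest point in each panel, from -4.82 to -2.90, and the other epithelial miRNAs lie between -1.61 and 1.26.

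Whether all pools of a cow group lay below all heifer pools depended on the group. In ANCs this held for all 4 miRNAs, beside 24.3% of the 247 miRNAs that passed the filter over all pools. In APCs it held for bta-miR-184 and bta-miR-205, beside 17.4%. In TCs it held for bta-miR-205 and bta-miR-183 at weeks 5 and 6, beside 12.6%, and for bta-miR-183 at weeks 9 and 10, beside 6.07%. None of the 4 had all 10 cow pools below all 3 heifer pools, which 6 of the 247 miRNAs had.

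RNA of the replicates numbered 1 was measured on one day and that of replicates 2 and 3 on the next, except that the day of APC replicate 2 is not given. Replicate 2 had the highest level of bta-miR-205 in 5 of 5 groups, and of bta-miR-184, bta-miR-182 and bta-miR-183 in 4 of 5 groups each. This was not counted over all miRNAs, so it is not known if it is particular to the members. The libraries held 145030 to 421435 recovered miRNA reads in replicates 2, 183575 to 358121 in replicates 1 and 316222 to 363025 in replicates 3. The part of depth in this was not tested. Pools were also set side by side within a number, as a description, since the members were chosen for lower levels in cows. How many other miRNAs had the same order within a number was not counted. Among replicates 1, the heifer pool with 1013 CPM of bta-miR-184 stood above 4 of 4 cow pools at 11.3 to 239 CPM. Among replicates 2 it had 3582 CPM against 53.4 to 1335 CPM in 4 cow pools, and among replicates 3 it had 2130 CPM against 27.0 and 182 CPM. For bta-miR-205 and bta-miR-183 the heifer pool was likewise above every cow pool of its number. For bta-miR-182 this held for numbers 1 and 3, and among replicates 2 for 3 of 4 cow pools, the APC pool being higher.

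Differences between cow groups did not enter the choice of the miRNAs and were tested. ANCs and APCs, which differ in energy status at the same weeks, did not differ detectably in any of the 4 (all pools entered). The log2 fold change (ANCs against APCs, limma) was -0.68 for bta-miR-184 (95% interval -4.33 to 2.96, adjusted p = 0.858), -0.28 for bta-miR-205 (-2.18 to 1.62, adjusted p = 0.878), -0.70 for bta-miR-182 (-2.46 to 1.05, adjusted p = 0.725) and -0.61 for bta-miR-183 (-2.01 to 0.80, adjusted p = 0.725). Exact two-sided permutation tests, which cannot go below 0.333 with 2 pools against 2, gave p = 0.667 for bta-miR-183 and p = 1.0 for the others. None of 207 miRNAs was called by limma (0%), with 16 at an unadjusted p-value under 0.05, 0 called by edgeR and 6 by DESeq2, with no member among them. Without ANC replicate 2, which leaves 1 ANC pool, bta-miR-184 stood at -2.78. Without APC replicate 1, which leaves 1 APC pool, bta-miR-182 stood at -1.65. The intervals are wide, and for bta-miR-184 they leave room for a difference in either direction as large as that between some cow groups and heifers.

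The TCs changed from negative to positive energy balance between weeks 5 and 6 and weeks 9 and 10. Energy balance and time after calving cannot be told apart in this comparison. From the earlier to the later weeks the log2 fold change was 0.99 for bta-miR-184 (95% interval -2.15 to 4.13, adjusted p = 0.776), 0.19 for bta-miR-205 (-1.03 to 1.42, adjusted p = 0.907), 0.06 for bta-miR-182 (-1.19 to 1.31, adjusted p = 0.981) and 0.37 for bta-miR-183 (-0.90 to 1.64, adjusted p = 0.783). The exact permutation p lay between 0.6 and 1.0, with 0.1 as the smallest that 3 pools against 3 allow. Of 224 miRNAs 0 were called by limma (0%), with 13 at an unadjusted p-value under 0.05, and 0 by edgeR and 8 by DESeq2, again without a member. The pools of both times overlapped for each miRNA. Without TC replicate 2 of the earlier weeks bta-miR-184 was called higher at the later weeks with 2.59 (limma adjusted p = 0.214). That fit called 25 of 228 miRNAs, 9 higher and 16 lower.

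ANCs and APCs were also set against the TCs of the same weeks. For ANCs the values ran from -1.02 for bta-miR-184 (-5.28 to 3.23, adjusted p = 0.879) over -0.84 for bta-miR-205 (-2.67 to 0.98, adjusted p = 0.75) and -0.47 for bta-miR-182 (-1.89 to 0.95, adjusted p = 0.805) to 0.04 for bta-miR-183 (-1.31 to 1.39, adjusted p = 0.997). For APCs they were -0.37 (-4.09 to 3.34), -0.60 (-2.10 to 0.90), 0.20 (-1.61 to 2.00) and 0.61 (-0.94 to 2.15) in the same order, each with an adjusted p = 0.992 by limma. limma called 0 of 225 miRNAs in both comparisons (0%), with 18 for ANCs and 6 for APCs at an unadjusted p-value under 0.05. edgeR called 0 in both and DESeq2 0 and 1.

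With the 5 pools of negative energy status (ANCs and TCs at weeks 5 and 6) set against the 5 of positive energy status (APCs and TCs at weeks 9 and 10), none of the 4 was called. All negative pools were from weeks 5 and 6, so energy status is partly confounded with time after calving here. All values by limma were below 0, but that of bta-miR-184 was 0.0025 with edgeR and 0.012 with DESeq2. The log2 fold changes were -0.85 for bta-miR-184 (95% interval -3.32 to 1.62), -0.21 for bta-miR-205 (-1.29 to 0.88), -0.30 for bta-miR-182 (-1.25 to 0.65) and -0.45 for bta-miR-183 (-1.30 to 0.41), each with an adjusted p = 0.995 by limma. The exact permutation p was 0.556, 0.722, 0.548 and 0.302, where 0.00794 is the smallest these pools allow. With the day of RNA measurement in the fit, which drops APC replicate 2, they were -1.55, -0.35, -0.10 and -0.29. limma called 0 of 221 miRNAs (0%), with 4 at an unadjusted p-value under 0.05, edgeR 0 and DESeq2 2. The energy status difference in cows of constant status was not detectably different from that in TCs for any member (limma interaction, values from -0.80 with SE 0.98 for bta-miR-182 to 0.15 with SE 2.45 for bta-miR-184, lowest adjusted p = 0.679).

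**Figure D3:**
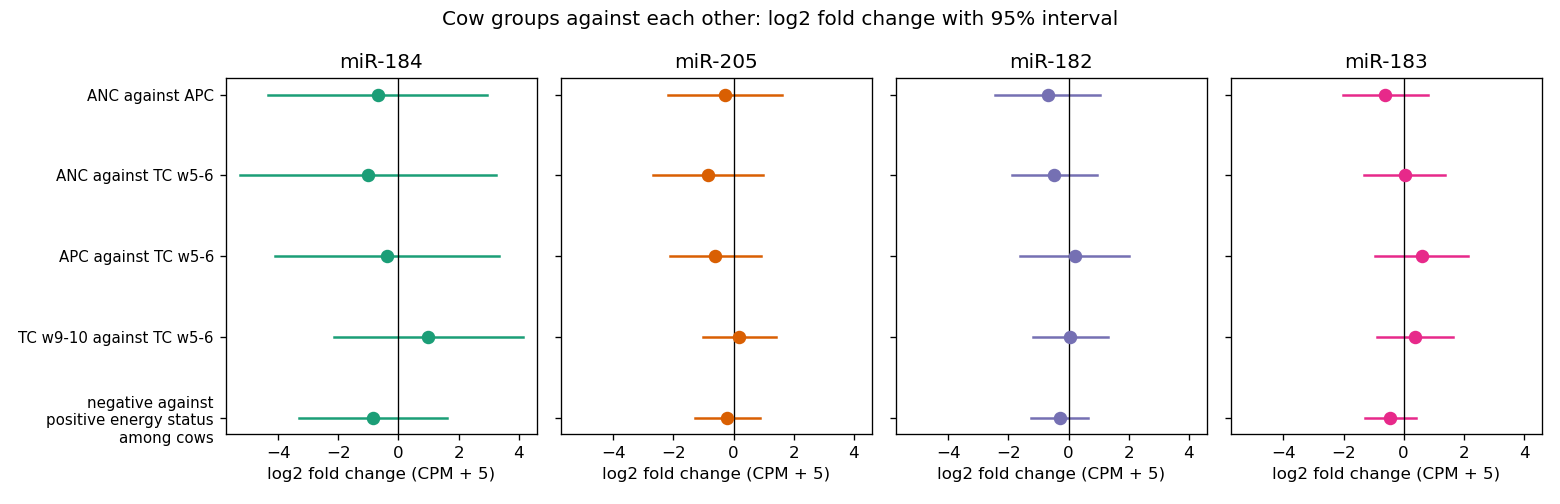
Log2 fold change between cow groups (on log2(CPM + 5), points) with its 95% interval (lines), 1 panel per miRNA. Every interval includes 0, and those of bta-miR-184 are the widest, down to -5.28 and up to 4.13.

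Relations between the miRNAs were computed over the 10 cow pools on log2(CPM + 5), 6 pairs in all. bta-miR-184 and bta-miR-205 had Pearson's r = 0.84 (permutation p = 0.00208, adjusted over 6 pairs 0.00624) and Spearman's rho = 0.81 (permutation p = 0.00774, adjusted 0.0464). Without replicate 2 of each TC group, the pools farthest from the median, r was 0.68 (permutation p = 0.0665), so that the relation no longer passed 0.05. As deviations from the group means, r was 0.84 (permutation p = 0.0048) with all 10 pools and 0.76 (permutation p = 0.0427) without the same pools. Within days of RNA measurement (9 pools, without APC replicate 2) r was 0.82 (exact permutation p = 0.0149, adjusted 0.0299), and within replicate numbers it was 0.73 (exact permutation p = 0.0312, adjusted 0.18).

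bta-miR-182 and bta-miR-183 had r = 0.89 (permutation p = 0.00176, adjusted 0.00624) and rho = 0.73 (permutation p = 0.0196, adjusted 0.0589). As deviations from the group means r was 0.92 (permutation p = 0.00062, adjusted 0.00372), and without the pools farthest from the median it was 0.83 (permutation p = 0.0352). The 3 cow pools at 492 to 705 CPM of bta-miR-182 stood apart from the other 7, however, and they also had more bta-miR-183, at 269 to 381 CPM against 84.4 to 182 CPM. Within the 7 lower pools, a set chosen after the values were seen, r was 0.52 (permutation p = 0.282) and rho 0.25 (permutation p = 0.595). Neither passed 0.05. The set was cut on bta-miR-182 itself, which left it between 169 and 251 CPM. A range this narrow can weaken r by itself, and these values cannot decide if the relation rests on the 3 pools that stand apart. Within days r was 0.85 (exact permutation p = 0.108) and within replicate numbers 0.81 (exact permutation p = 0.0599).

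The pairs of bta-miR-184 with bta-miR-182 and bta-miR-183 did not pass the correction over all 10 pools (r = 0.44 and 0.52, rho = 0.20 and 0.52, permutation p = 0.201 and 0.122 for r and 0.581 and 0.133 for rho). Neither did bta-miR-205 with bta-miR-182 and bta-miR-183 (r = 0.58 and 0.59, rho = 0.52 and 0.60, permutation p = 0.0631 and 0.065 for r and 0.134 and 0.0718 for rho). Without the pools farthest from the median, r was -0.16, 0.17, 0.59 and 0.52 for these 4 pairs. As deviations from the group means, bta-miR-205 and bta-miR-183 passed it (r = 0.77, adjusted permutation p = 0.0256), and without the pools farthest from the median, both ANC pools, r was 0.88 for bta-miR-205 with bta-miR-182 (permutation p = 0.00689) and 0.89 with bta-miR-183 (permutation p = 0.00511). Within days, bta-miR-183 passed with bta-miR-184 (r = 0.88, exact permutation, adjusted p = 0.0104) and with bta-miR-205 (r = 0.75, exact permutation, adjusted p = 0.0219). Within replicate numbers these 4 pairs lay between -0.05 and 0.20, and none of the 6 pairs passed the correction. Whether one pair is more closely related than another was not tested.

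**Figure D4:**
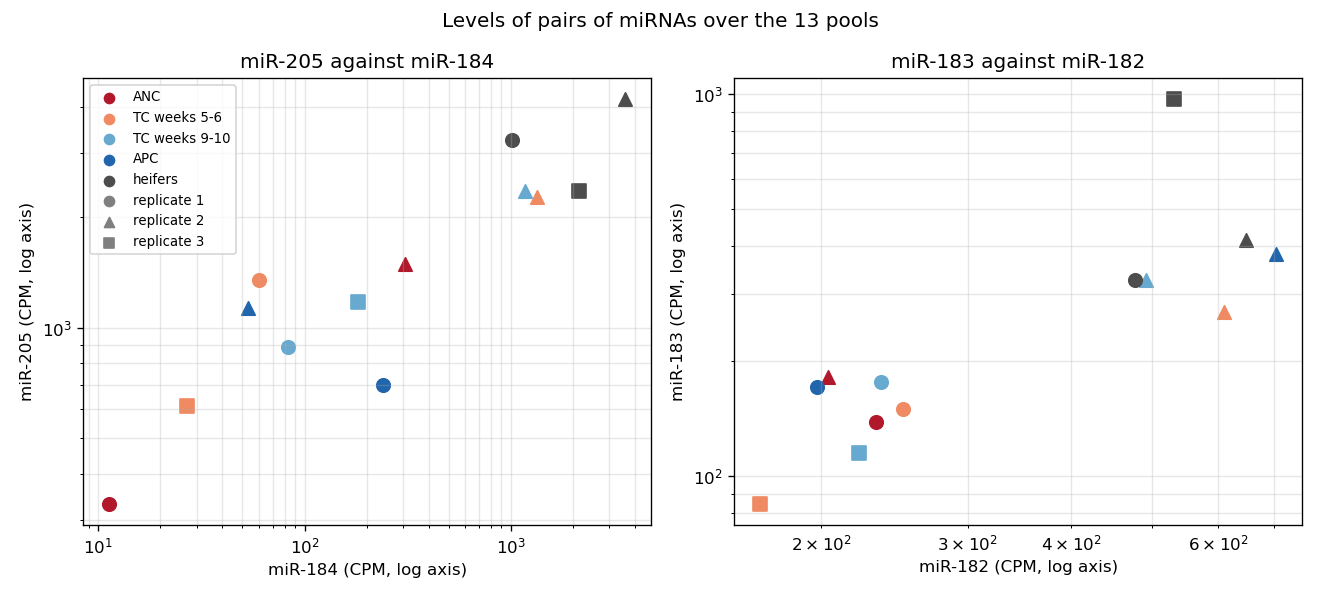
bta-miR-205 against bta-miR-184 (left) and bta-miR-183 against bta-miR-182 (right) in CPM on log axes, 1 point per pool, with the color giving the group and the symbol the replicate number. The left panel rises over the whole range, and on the right 3 cow pools and the heifers lie apart from 7 cow pools, with heifer replicate 3 above the others at 973 CPM of bta-miR-183.

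The balance of the cluster partners does not depend on the scaling of the libraries. bta-miR-183 made up 30.6% to 47.2% of the reads of both miRNAs in 12 of the 13 pools. In heifer replicate 3 it made up 64.7% (363 of 561 reads, exact 95% interval 60.6% to 68.7%). The other heifer pools had 40.6% (67 of 165 reads, 33.0% to 48.5%) and 39.0% (176 of 451 reads, 34.5% to 43.7%). That 1 pool also set the high mean of bta-miR-183 in heifers, while its bta-miR-182 with 531 CPM lay between the other heifer pools. miR-96, the last member of the cluster, had 0 to 15 reads in the pools of the groups for which it was listed (not the TCs at weeks 9 and 10). It did not pass the filter in any main fit. It entered the alternative fits without the filter, whose values for it are not given here.

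**Figure D5:**
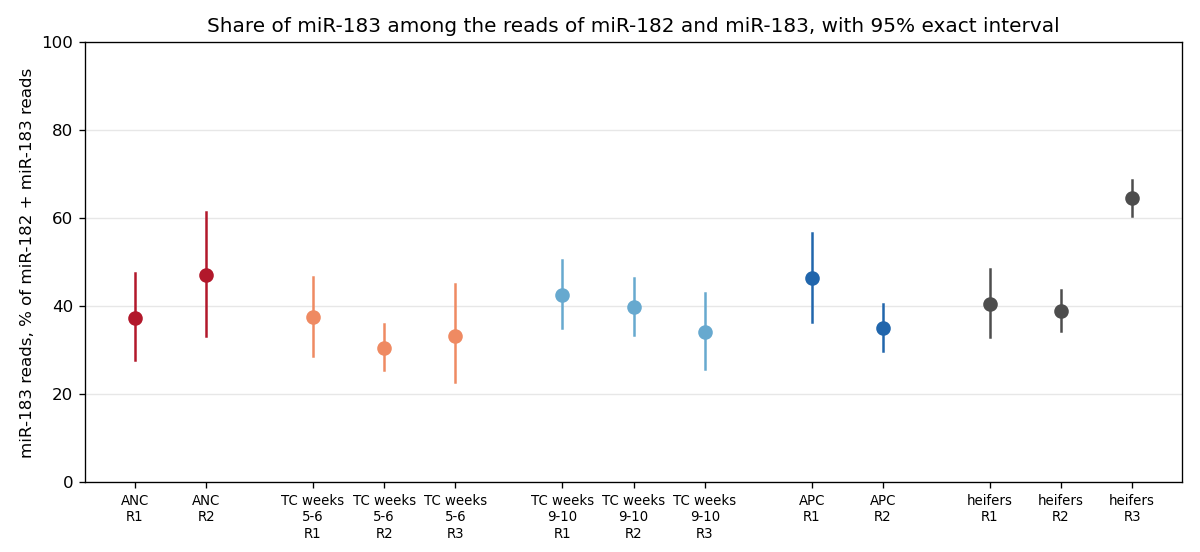
Reads of bta-miR-183 as a percentage of the reads of bta-miR-182 and bta-miR-183 in each pool (points), with the exact 95% interval for counting error (lines). Heifer replicate 3 stands at 64.7%, and the other 12 pools lie between 30.6% and 47.2%.

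bta-miR-205 against bta-miR-184 was less balanced. There were at most 3.21 times as many CPM of bta-miR-205 as of bta-miR-184 in heifer pools (median 1.17) and 1.70 to 29.3 times (median 8.58) in cow pools. The lowest cow values, 1.70 and 2.02, belonged to replicate 2 of the TCs at each time. APC replicate 1, with 2.94, also lay within the range of the heifers, although its levels of both miRNAs were far below theirs.

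Of 10 other epithelial miRNAs, miR-203 and miR-944 were not listed for any group, miR-96 did not pass the filter, and 7 were tested. The list was chosen with earlier results of these data known, so its values against heifers are a description without p-values. In ANCs against heifers, 3 of the 7 were called lower and 0 higher, with a median log2 fold change of -0.97. Over all 215 miRNAs tested, 27 were called lower and 14 higher. The 3 epithelial ones were bta-miR-200b with -1.59 (SE 0.38), bta-miR-200c with -1.61 (SE 0.37) and bta-miR-141 with -1.12 (SE 0.48). All are of the miR-200 family, which keeps ZEB1 and ZEB2 low. bta-miR-31 had 0.82 (SE 0.36) and was not called. In APCs 0 of 7 were called, beside 12.4% of 233, with a median of 0.09, where both bta-miR-184 and bta-miR-205 had been. In TCs at weeks 5 and 6 bta-miR-375, known from pancreatic islets and neuroendocrine cells, was called higher with 1.26 (SE 0.42), beside 6.52% of 230. The median was 0.02. In TCs at weeks 9 and 10 0 of 7 were called, beside 0% of 227, with a median of -0.70. Between cow groups 0 of 7 were called by limma in any of the 5 comparisons. The summed level of these 7 overlapped between heifers, with 16427 to 23817 CPM, and cows, with 8564 to 45318 CPM.

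The miRNAs whose pattern over the 13 pools was most like that of each member were found among 246 others, as a description, since all points share libraries and scaling. The difference between cows and heifers, by which the members were chosen, also enters these r. bta-miR-184 was closest to bta-miR-205 (r = 0.901), bta-miR-369-5p (r = 0.806) and bta-miR-222 (r = 0.791). bta-miR-205 was closest to bta-miR-184, bta-miR-222 (r = 0.885) and bta-miR-122 (r = 0.806). bta-miR-182 was closest to bta-miR-200c (r = 0.953), bta-miR-200b (r = 0.945) and bta-miR-148a (r = 0.870), ahead of its partner bta-miR-183 (r = 0.829). bta-miR-183 was closest to bta-miR-155 (r = 0.863), bta-miR-182 and bta-miR-708 (r = 0.804). Over the 10 cow pools alone, bta-miR-184 had r = 0.843 with bta-miR-205, 0.651 with bta-miR-369-5p and 0.756 with bta-miR-222. bta-miR-205 had 0.863 with bta-miR-222 and 0.699 with bta-miR-122. bta-miR-182 kept r = 0.951 with bta-miR-200c, 0.937 with bta-miR-200b, 0.932 with bta-miR-148a and 0.890 with bta-miR-183. bta-miR-183 had 0.612 with bta-miR-155 and 0.598 with bta-miR-708. The 3 pools with the most bta-miR-182 stood apart for bta-miR-200c as well, at 2638 to 4211 CPM against 704 to 1537 CPM in the other cow pools, and for bta-miR-200b, at 3889 to 5445 CPM against 1005 to 2493 CPM. bta-miR-155, a miRNA of activated lymphocytes and macrophages, stood at 804, 982 and 2023 CPM in heifers, highest in the replicate 3 that also had the most bta-miR-183, and at 196 to 656 CPM in cows.

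Markers of other cell types moved with some of these differences. Their lists were chosen with earlier results of these data known, so their values are a description. The 6 leukocyte miRNAs summed to 4799 to 5744 CPM in heifers. They summed to 707 to 1721 CPM in ANCs, 2329 to 3972 CPM in APCs, 2693 to 3013 CPM in TCs at weeks 5 and 6 and 1606 to 4659 CPM in TCs at weeks 9 and 10, so that 10 of 10 cow pools were below the heifers. Of them 5 were tested, and 5, 0, 2 and 0 were called lower in the comparisons of ANCs, APCs and the TCs at either time with heifers. Over all miRNAs tested, 27 of 215, 7 of 233, 9 of 230 and 0 of 227 were called lower in the same order. The liver miRNA bta-miR-122 stood at 5338 to 17374 CPM in heifers and 312 to 5859 CPM in cows, with 8 of 10 cow pools below the heifers, and was called lower in ANCs. The erythroid (2 listed), granulosa and gonad (9 listed), ciliated cell (2 listed) and muscle and stroma (5 listed) sums overlapped between heifers and the cows of all groups. In ANCs, where all 4 members were called lower, the erythroid sum was 124 to 1247 CPM against 1707 to 3903 CPM in heifers, with 2 of 2 markers called lower. The granulosa and gonad sum was 58739 to 77088 CPM against 95402 to 137283 CPM, with 1 of 9 called lower and 3 higher. Only 3 of these 9 had a log2 fold change below 0, and their median was 0.94. A sum follows its most abundant miRNAs, and this lower sum did not reflect most of the list. No listed marker was at 0 in all pools of a group. The granulosa and gonad sum, between 58218 and 196713 CPM, was the largest of these sums in every group. The lists differ in length and in the abundance of their miRNAs, so this order does not give the share of a cell type. The part of other cell types in the levels of the 4 miRNAs was not tested.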

How the data were processed

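Small RNA of EVs from 13 pools of follicular fluid was measured with the QIAseq miRNA kit. Per the study's methods and the submitters' processing notes, the authors trimmed adaptors with cutadapt 1.11, mapped to UMD3.1 with Bowtie2 2.2.2, annotated against miRBase and normalized with TMM. The deposited values are CPM divided by a TMM factor, not logged. Where the deposited total of a library exceeded what CPM can sum to (the highest was 1251163.8), the column was entered as a signal scaled by the authors rather than as plain CPM. Whole reads came out for 3681 of 3681 values (tolerance 0.1 read). Totals per library are those of these reads, which cover the listed miRNAs alone and not the whole library.

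For each comparison the reads of miRNAs that both groups list were filtered (filterByExpr, minimum count 10, minimum total 15), scaled with TMM in edgeR 4.0.16, and tested with limma 3.58.1 (mean-variance trend, Benjamini-Hochberg) on log2(CPM + 5) in the pools of those groups only. edgeR's quasi-likelihood test and DESeq2 1.42.0 on the recovered reads were alternatives, as were other scalings, pseudocounts of 1 and 20, no filter, all 13 libraries, the replicate block, the day of RNA measurement and leaving out each pool. Single values were compared with exact permutation tests (scipy 1.17.1), and correlations with 100000 resamples. The steps were checked on simulated data.

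The labels number the replicates in every group. Deviations from the group means of same-numbered pools correlated at 0.189 to 0.373 in all 3 pairs of TCs at weeks 5 and 6 and heifers, so for that comparison the blocked fit is given beside the unpaired one, which had been fixed as the main fit. The members and lists were chosen with earlier results of these data known. Named in the text are the members, 10 other epithelial miRNAs, the 3 miRNAs most like each member over all pools, and marker miRNAs where they move with a result.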

Additional observations from a re-analysis of the deposited data

Results flagged for a closer look

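Dixon's test for a single outlying value was applied to each of the 4 miRNAs in the 5 pools of negative and the 5 pools of positive energy status of cows, 8 sets in all, where chance alone flags about 1 set in 20. It passed in 4 sets on the CPM scale, each time for replicate 2 of a TC group. bta-miR-184 stood at 1335 CPM in TCs at weeks 5 and 6, where the next pool of negative status had 306 CPM, and at 1168 CPM in TCs at weeks 9 and 10, where the next pool of positive status had 239 CPM. bta-miR-205 stood at 2361 CPM in the same pool of the later weeks, where the next had 1177 CPM. bta-miR-182 stood at 610 CPM in TCs at weeks 5 and 6, where the next had 251 CPM. None of the 8 sets passed on the log2(CPM + 5) scale, on which the comparisons were fitted.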

How the results depend on the processing

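Against heifers, leaving out 1 pool gave 15 to 61 called miRNAs for ANCs (41 with all pools), 5 to 50 for APCs (29), 0 to 46 for the TCs of weeks 5 and 6 (the earlier TCs, 15) and 0 to 24 for those of weeks 9 and 10 (the later TCs, 0). Among cows, where 0 were called with all pools, it gave 0 to 24 for ANCs against APCs, 0 to 7 for ANCs and 0 to 1 for APCs against TCs, 0 to 25 between the TC times and 0 to 2 for energy status. A pool left alone in its group was assumed to vary like the others. Total counts in place of TMM gave 63 calls for APCs against heifers (14 higher and 49 lower, against 22 and 7, with the median of all miRNAs at -0.54), 26 for the earlier TCs (4 higher and 22 lower, against 6 and 9, median -0.24) and 6 for the later TCs. A pseudocount of 1 gave 4 for the earlier TCs. DESeq2 gave 36 for the earlier TCs, 14 for the later TCs, 6 for ANCs against APCs, 1 for APCs against TCs, 8 between the TC times and 2 for energy status. The fit over all 13 libraries gave 5 for the later TCs against heifers and 1 for energy status. The replicate block gave 64 for ANCs against heifers, 34 for the earlier TCs and 3 for the later TCs, and it changed no call on a member other than bta-miR-184 and bta-miR-205 in the earlier TCs and bta-miR-184 in the later TCs, which were called with it. In the other comparisons between 2 groups the numbers were not taken to pair the pools (mean correlation of same-numbered pools between -0.094 and 0.255). The day of RNA measurement gave 0 for APCs (with 1 APC pool left, and bta-miR-184 at -1.93), 0 for the earlier TCs and 2 for the later TCs. For ANCs against APCs the fit with the day was not run, as it left no residual degree of freedom. The causes of these shifts were not tested.

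Against heifers the members kept their negative sign in every alternative except bta-miR-182 in APCs, which ranged from -1.40 to 0.46 with 1 pool left out. Against heifers total counts added calls on bta-miR-183 in APCs, on bta-miR-184 and bta-miR-205 in the earlier TCs and on bta-miR-184 in the later TCs, and DESeq2 on bta-miR-205 in the earlier TCs and on bta-miR-184, bta-miR-205 and bta-miR-183 in the later TCs. The call on bta-miR-183 in the earlier TCs was lost with a pseudocount of 1 (-1.73) and with the day (-1.70), and that on bta-miR-182 in ANCs in the fit over all libraries, which added bta-miR-184 in the earlier TCs (-3.82). With the day the calls on bta-miR-184 and bta-miR-205 (-2.07) in APCs were lost as well, and bta-miR-184 was called in the later TCs. Among cows the signs were not stable. For bta-miR-184, ANCs against APCs turned to 0.08 with edgeR and 0.05 with DESeq2 (-2.78 to 1.32 with 1 pool left out), APCs against TCs to 1.77 with the day (-1.48 to 1.33), the TC times to -0.021 with DESeq2 (-0.18 to 2.59), energy status to 0.0025 with edgeR and 0.012 with DESeq2, and ANCs against TCs ranged from -3.08 to 1.01. For bta-miR-205, ANCs against APCs turned to 0.13 with total counts (-1.35 to 0.68), and the ranges were -1.84 to 0.13 for ANCs against TCs, -0.42 to 0.60 for the TC times and -0.51 to 0.18 for energy status. For bta-miR-182, APCs against TCs turned to -0.25 with the block and -0.47 with the day (-0.64 to 1.24), the TC times to -0.029 with DESeq2's size factors, -0.023 without the filter, -0.08 with edgeR, -0.15 with DESeq2 and -0.0007 over all libraries (-0.44 to 0.55), and the ranges were -1.65 to 0.22 for ANCs against APCs and -0.86 to 0.11 for ANCs against TCs. For bta-miR-183, ANCs against TCs turned to -0.12 with edgeR, -0.10 with DESeq2 and -0.39 with the block (-0.36 to 0.50), and the TC times ranged from -0.14 to 0.74. Of the correlations, that of bta-miR-205 and bta-miR-183 passed the correction as deviations from the group means (0.77) and within days (0.75), and that of bta-miR-184 and bta-miR-183 within days (0.88). bta-miR-182 and bta-miR-183 no longer passed within days (0.85), within replicate numbers (0.81) or within the 7 lower pools (0.52), nor bta-miR-184 and bta-miR-205 within numbers (0.73), where bta-miR-184 and bta-miR-182 turned to -0.05. The settings within days, within numbers and within the 7 pools were chosen after seeing the data. The 7 pools were cut on bta-miR-182 itself, which narrows its range and can weaken r.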
